A study of Mus musculus with 3 samples.

Results

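Brown fat is the tissue in which mitochondria burn fuel to release heat, and the genes described here are 10 that its cells are known for: *Ucp1*, *Cidea*, *Cox7a1*, *Cox8b*, *Pdk4*, *Pck1*, *Fabp3*, *Dgat2*, *Gpd1* and *Slc36a2*. They were taken by symbol from the 54838 genes listed for spatial transcriptomes of 3 thymus sections, and all 10 were listed and detected. In brown adipocytes, fatty acids are released from many small lipid droplets and oxidised in densely packed mitochondria, and the uncoupling protein encoded by *Ucp1* lets protons return across the inner mitochondrial membrane without making ATP. White adipocytes store triglyceride in a single large droplet and secrete hormones such as adiponectin, adipsin and resistin (*Adipoq*, *Cfd* and *Retn*). Both kinds of fat lie in the connective tissue around the mouse thymus, and beige adipocytes, which switch on many of the same genes inside white fat, are not told apart from brown ones by these genes.

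The sections came from female C57BL/6 mice, 2 of them *Trp53*-/- (KO) and 1 *Trp53*+/+ (WT). They are named KO1134 (17 weeks old), KO1308 (21 weeks old) and WT1101 (17 weeks old), after the mouse numbers in the labels. Transcripts were captured on slides with spots 4.8 µm apart and counted once each through unique molecular identifiers (UMIs), and the spots were summed here in square bins of 27 µm. Bins with at least 300 genes and at most 30% mitochondrial UMIs, lying in connected groups of at least 200 bins, gave 12009 bins in KO1134, 16140 in KO1308 and 27104 in WT1101, with means of 2591, 1090 and 1497 UMIs per bin. *Trp53* itself had 17.0 CPM (UMIs of the gene scaled by the total UMIs of the bins summed) in KO1134, 25.1 CPM in KO1308 and 79.9 CPM in WT1101. These counts check the labels only in part, because UMIs are read near the 3′ end of a transcript and the deleted part of the gene is not stated in the sources used here. With 1 WT section, and with bins of 1 section that are not replicates, no test between groups was made. Brackets hold exact 95% intervals (Poisson for CPM, conditional binomial for a ratio, Clopper-Pearson for a share), which cover counting error only. In sums of this kind, fewer cells of a type and less RNA per cell cannot be told apart.

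A bin was called brown when at least 0.5% of its UMIs came from *Ucp1*, *Cidea* and *Cox8b* together. It was called white when it was not brown and at least 0.5% of its UMIs came from *Adipoq*, *Cfd* and *Retn*, and all remaining bins were called other. Levels of these 3 brown genes between the classes are therefore set by the definition, and the other 7 genes were proposed with these values in view, so every level below is a description and not a test.

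The start of the gene that defines the tissue is shown for orientation. *Ucp1* lies on the forward strand at chr8:83290352-83298452 (GRCm38, GENCODE vM21), and the 250 bases before its RefSeq start (chr8:83290098-83290347, GRCm38.p6) are printed 5′ to 3′, with a match to AGGTCA, the half-site read by many nuclear receptors, in capitals.
Ucp1 upstream: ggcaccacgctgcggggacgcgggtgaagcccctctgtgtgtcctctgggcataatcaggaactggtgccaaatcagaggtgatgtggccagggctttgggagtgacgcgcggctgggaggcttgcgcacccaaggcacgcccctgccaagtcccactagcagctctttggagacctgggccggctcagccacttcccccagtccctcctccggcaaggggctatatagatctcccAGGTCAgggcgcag
The match begins 14 bases before the start. AGGTCA or its reverse complement TGACCT occurs in 14.0% of the 32851 windows of this length in the RefSeq table, and of the 6 genes of the set in that table (*Ucp1*, *Pck1*, *Fabp3*, *Pdk4*, *Cox7a1* and *Cox8b*) it was found in *Ucp1* alone. TGACGTCA, which reads the same on both strands and is the site of cAMP-responsive factors, was in 1.55% of all windows and in none of the 6. A match is a description of letters and not a binding site. *Cox7a1* (chr7:30184144-30186078) and *Cox8b* (chr7:140898945-140900446, reverse strand) lie on the same chromosome as *Dgat2* (chr7:99153658-99182719, reverse strand). No exon of *Ucp1*, *Cox7a1*, *Cox8b*, *Pdk4*, *Pck1*, *Dgat2* or *Slc36a2* overlaps an exon of another annotated gene, whereas those of *Fabp3* overlap *Zcchc17* and *Gm10570*, and those of *Gpd1* overlap *Gm16537*, on the opposite strand.

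Brown bins were found in both KO sections and not in the WT section. They numbered 233 in KO1134 (1.94% of bins, 1.70-2.20) and 505 in KO1308 (3.13%, 2.87-3.41), areas of 0.170 and 0.368 mm2. WT1101 had 0 of 27104 bins, which allows a share of up to 0.0111% when 3 counts are taken as the limit of a count of 0 (the exact interval reaches 0.0136%). White bins were also nearly confined to the KO sections, with 761 in KO1134, 408 in KO1308 and 12 in WT1101, so the WT section held too little fat of either kind for the genes to be compared within fat between genotypes, and what was sectioned around the thymus cannot be told apart from genotype. The brown bins were clustered in space. In KO1134, 200 of 233 lay in a single patch along an edge of the tissue. In KO1308, 460 of 505 lay in a single patch, and 462 lay in a separate piece of tissue of 536 bins that also held 45 white bins. Of the 8 bins around a brown bin, 62.2% were brown and 8.37% white in KO1134, against 79.1% and 7.75% in KO1308. White bins lay a median of 181 µm from the nearest brown bin in KO1134 and 1121 µm in KO1308.

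**Figure D1:**
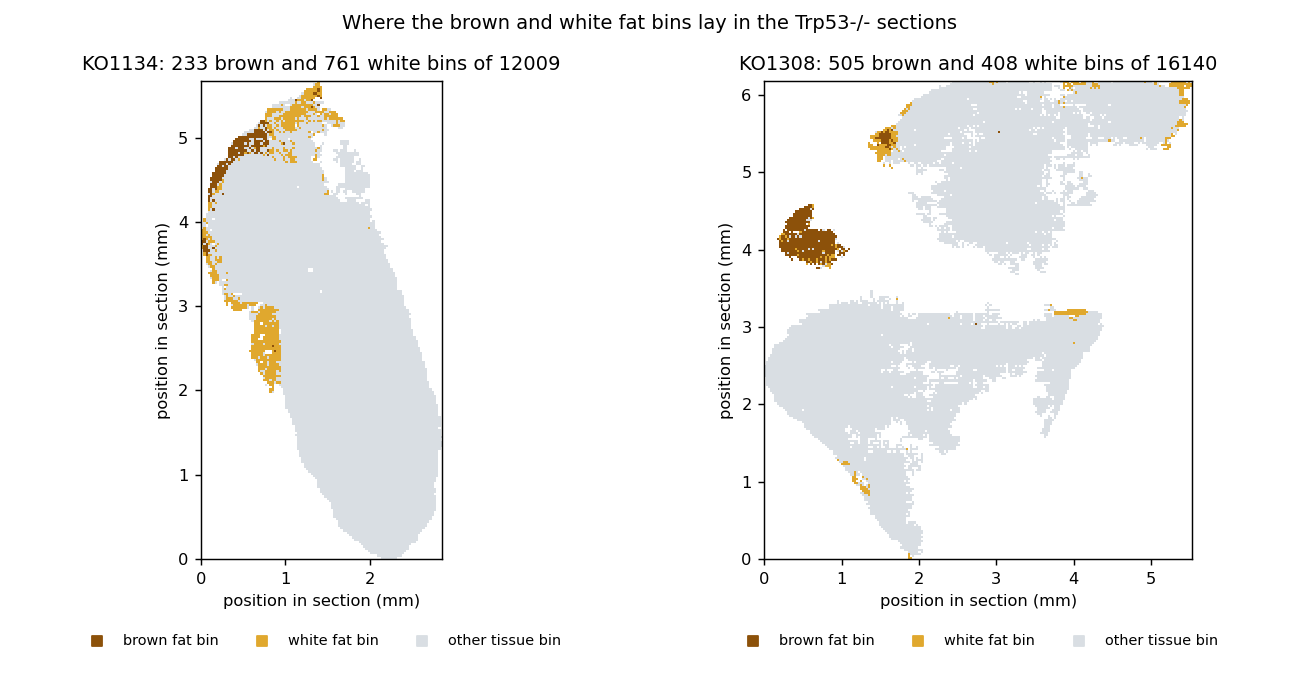
Map of the tissue bins of both KO sections, with both axes in mm from the corner of the tissue and each 27 µm bin coloured as brown, white or other. In KO1134 the brown bins form a band at an edge beside white bins, and in KO1308 most of the 505 brown bins fill a separate piece of tissue.

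Brown bins were rich in mitochondrial transcripts. Mitochondrially encoded genes took 20.7% of the UMIs of brown bins in KO1134 and 20.8% in KO1308, compared with 8.07% in white bins of both sections and 1.24% and 1.11% in other bins. The median depth of a brown bin was 2597 UMIs in KO1134 and 1568 in KO1308, deeper than that of white bins (930 and 717.5 UMIs). When CPM was taken outside the mitochondrially encoded genes, the median ratio of brown to white CPM over the 10 genes, averaged over the KO sections, was 5.38 instead of 4.64.

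*Ucp1*, the uncoupling protein, had 1566 CPM (1467-1669) in brown bins of KO1134 and 2873 CPM (2758-2991) in those of KO1308. Its level in white bins was 124 and 322 CPM, and in other bins 7.6 and 7.0 CPM. In WT1101 a single UMI of *Ucp1* was counted among 40575395. That brown bins were highest in both KO sections is set by the definition. *Ucp1* was seen in 92.3% of brown bins of KO1134 and 94.7% of those of KO1308. *Cidea*, a lipid droplet protein, reached 1541 CPM (1443-1644) in KO1134 and 1625 CPM (1539-1715) in KO1308, with 195 and 165 CPM in white bins. WT1101 had 7 UMIs of it. *Cox8b*, a tissue-restricted subunit of cytochrome c oxidase (complex IV of the respiratory chain), had 4153 CPM (3991-4319) and 4885 CPM (4735-5038) in brown bins and 745 and 753 CPM in white bins. It was seen in all 233 brown bins of KO1134 and in 98.8% of those of KO1308. WT1101 had 127 UMIs, or 3.13 CPM, of *Cox8b*.

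Among the mitochondrial and fuel-handling genes that the definition did not use, *Cox7a1*, another tissue-restricted complex IV subunit, followed the defining genes. It had 1932 CPM (1822-2047) and 1901 CPM (1808-1998) in brown bins, 256 and 384 CPM in white bins and 22.2 and 15.6 CPM in other bins of KO1134 and KO1308, with 6.26 CPM in WT1101. *Fabp3*, the heart-type fatty acid carrier, was the sparsest of the set in brown bins, at 170 CPM (139-207) in KO1134 and 152 CPM (126-181) in KO1308, and was seen in 33.5% and 20.2% of them. In white bins it had 17 and 5 UMIs. *Pdk4*, the kinase that shuts off pyruvate dehydrogenase and so spares glucose, had 396 CPM (347-450) and 683 CPM (628-742) in brown bins against 131 and 162 CPM in white bins. *Fabp3* and *Pdk4* thus kept the order of brown over white over other bins in both KO sections, as did *Cox7a1* and every other gene of the set. For *Fabp3* in KO1308 the white level rests on 5 UMIs, and white bins at least 100 µm from a brown bin had 0 UMIs.

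The genes of glycerol and triglyceride supply, and *Slc36a2*, were high in both kinds of fat. *Gpd1*, which makes glycerol-3-phosphate from a glycolytic intermediate, had 1765 CPM (1660-1874) and 2895 CPM (2780-3013) in brown bins and 462 and 956 CPM in white bins. *Pck1*, which in fat feeds glycerol synthesis from pyruvate, had 1278 CPM (1189-1372) and 2025 CPM (1929-2125) in brown bins and 700 and 788 CPM in white bins. Of the 25 *Pck1* UMIs in WT1101, 8 lay in its 12 white bins. For *Dgat2*, the enzyme of the last step of triglyceride synthesis, the levels were 837 CPM (766-914) and 661 CPM (607-719) in brown bins and 456 and 514 CPM in white bins. *Slc36a2*, a proton-coupled amino acid transporter at the cell surface, had 281 CPM (240-327) and 304 CPM (267-344) in brown bins and 201 and 192 CPM in white bins. White bins therefore held more than a trace of these 4 genes, at levels far above the 5.52 and 2.5 CPM (*Slc36a2*) or 15.8 and 10.7 CPM (*Dgat2*) of other bins. This was not particular to them, as *Cox8b* had 745 and 753 CPM in white bins.

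**Figure D2:**
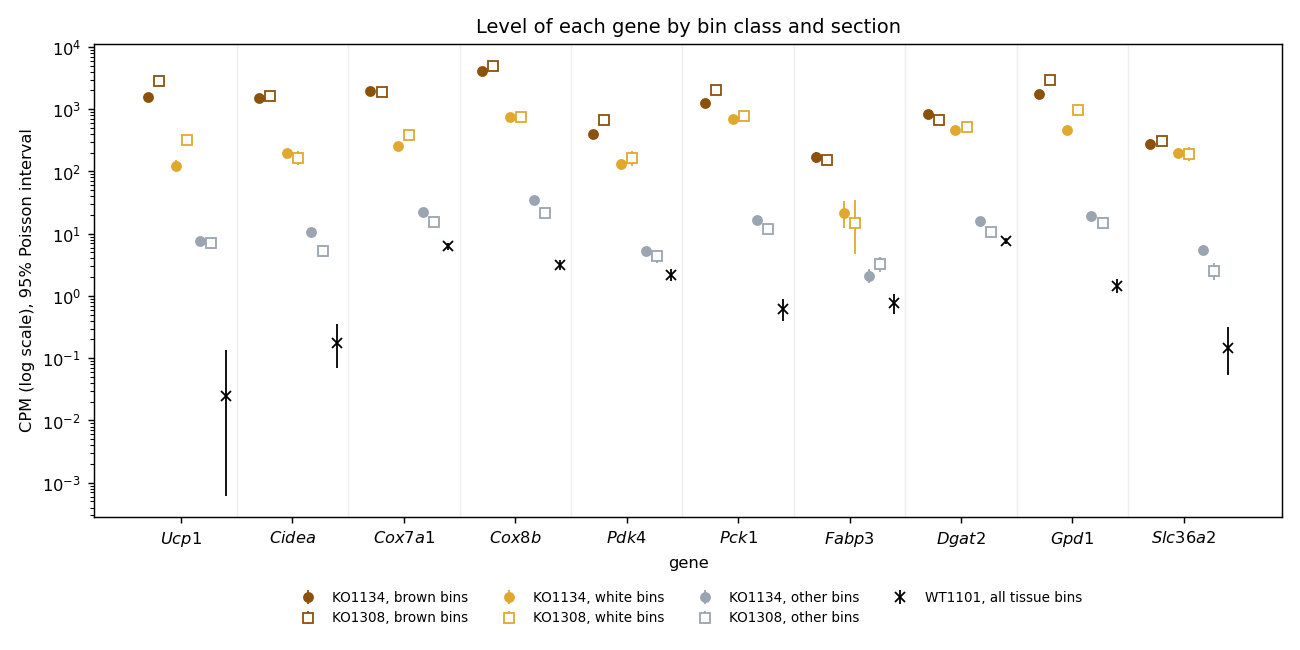
Level of the 10 genes (x axis) in CPM on a log scale (y axis) in brown, white and other bins of KO1134 (filled circles) and KO1308 (open squares) and in all tissue bins of WT1101 (crosses), with 95% Poisson intervals. Every gene is highest in brown bins of both sections, *Dgat2* and *Slc36a2* have white levels close to the brown ones, and *Ucp1* is lowest in WT1101, where it rests on 1 UMI.

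Against the thymus and the rest of the tissue, all 10 genes were at least 10-fold higher in brown than in other bins of both KO sections, as were 2.92% of the 6585 genes with at least 20 UMIs in fat bins of each section. The ratios ran from 50.9 (40.8-63.5) for *Slc36a2* to 206 (178-239) for *Ucp1* in KO1134, and from 47.1 (33.9-66.2) for *Fabp3* to 410 (340-499) for *Ucp1* in KO1308. Against white bins the set spread out. *Ucp1* was 12.7-fold (10.3-15.8) and 8.93-fold (7.37-10.9) higher in brown bins, *Fabp3* 8.03-fold (4.78-14.3) and 10.3-fold (4.30-32.3), and *Cidea* 7.91-fold (6.67-9.44) and 9.83-fold (7.53-13.1), in KO1134 and KO1308. *Cox7a1* (7.55 and 4.96) and *Cox8b* (5.57 and 6.49) followed, then *Gpd1* (3.82 and 3.03) and *Pdk4* (3.02 and 4.21), and the smallest ratios were those of *Pck1* (1.83 and 2.57), *Dgat2* (1.84 and 1.29) and *Slc36a2* (1.40 and 1.58). At least 2-fold higher in both sections were 7 of the 10 genes, beside 2.63% of the 6585 genes, and at least 5-fold higher were 4 (*Ucp1*, *Fabp3*, *Cidea* and *Cox8b*), beside 0.106%. The median over all these genes was 0.692 in KO1134 and 0.638 in KO1308. Ordered by the smaller of the ratios in the 2 sections, *Ucp1* ranked 1, *Fabp3* 2, *Cidea* 3, *Cox8b* 5 and *Cox7a1* 8 of 6585 genes, *Gpd1* and *Pdk4* 28 and 29, and *Pck1*, *Slc36a2* and *Dgat2* 228, 491 and 593. These ranks describe how the genes were chosen and support nothing further.

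Whether a gene counted as exclusive to brown fat depended on which white bins it was set beside. A gene was called exclusive here when its ratio of brown to white CPM was at least 10 in each KO section, and shared when the ratio lay between 0.5 and 2 in each. The call sets brown bins beside white bins only, and muscle, described below, has no part in it. Over all white bins, 0 of the 10 genes were exclusive (0% of the 6585 genes), 2 were shared (*Dgat2* and *Slc36a2*, beside 48.4% of all genes) and 8 lay between. Only 1 gene of the set passed 10 in KO1134 (*Ucp1*) and 1 in KO1308 (*Fabp3*, from 5 UMIs in white bins), beside 0.0152% of all genes in each section. The count of exclusive genes also moved with other settings, to 3 with brown bins at 0.25%, 2 with white bins at 1%, and 1 with 20 µm bins, with at least 200 genes per bin, with bins outside the connected groups kept or with CPM outside mitochondrially encoded genes. White bins at least 100 µm from any brown bin numbered 535 in KO1134 and 279 in KO1308. In those, *Ucp1* had 51.2 and 31.2 CPM, *Cidea* 78.8 and 10.4 CPM, and *Cox7a1* 92.5 and 31.2 CPM. Set beside these distant white bins, *Ucp1* was 30.6-fold (20.7-47.1) and 92.0-fold (42.2-251) higher in brown bins, *Cidea* 19.6-fold (14.3-27.6) and 156-fold (43.1-1290, from 2 UMIs), and *Cox7a1* 20.9-fold (15.6-28.6) and 60.9-fold (27.9-166). These 3 genes were then exclusive, and the only other of the 6585 genes to pass 10 in both sections (0.0607% in all) was *Coq8a*, an enzyme of coenzyme Q synthesis. *Ucp1*, *Cidea* and *Cox8b* define the brown bins, from which distance was measured, so the ratios of these genes follow in part from the definition. *Cox7a1* and *Coq8a* lie outside it. *Cox8b* had ratios of 8.61 (7.55-9.86) and 40.8 (27.1-64.4), since distant white bins of KO1134 still held 482 CPM of it against 120 CPM in KO1308. *Fabp3* was 21.6-fold (8.20-81.0) higher in KO1134 and at least 9.73-fold higher in KO1308, where distant white bins had 0 UMIs and 3 were assumed, so whether it passed 10 there is not determined. *Slc36a2* (1.53 and 2.65), *Dgat2* (2.05 and 1.98), *Pck1* (2.29 and 6.71), *Gpd1* (5.43 and 7.41) and *Pdk4* (5.03 and 32.8) lay between, and 0 genes were shared.

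**Figure D3:**
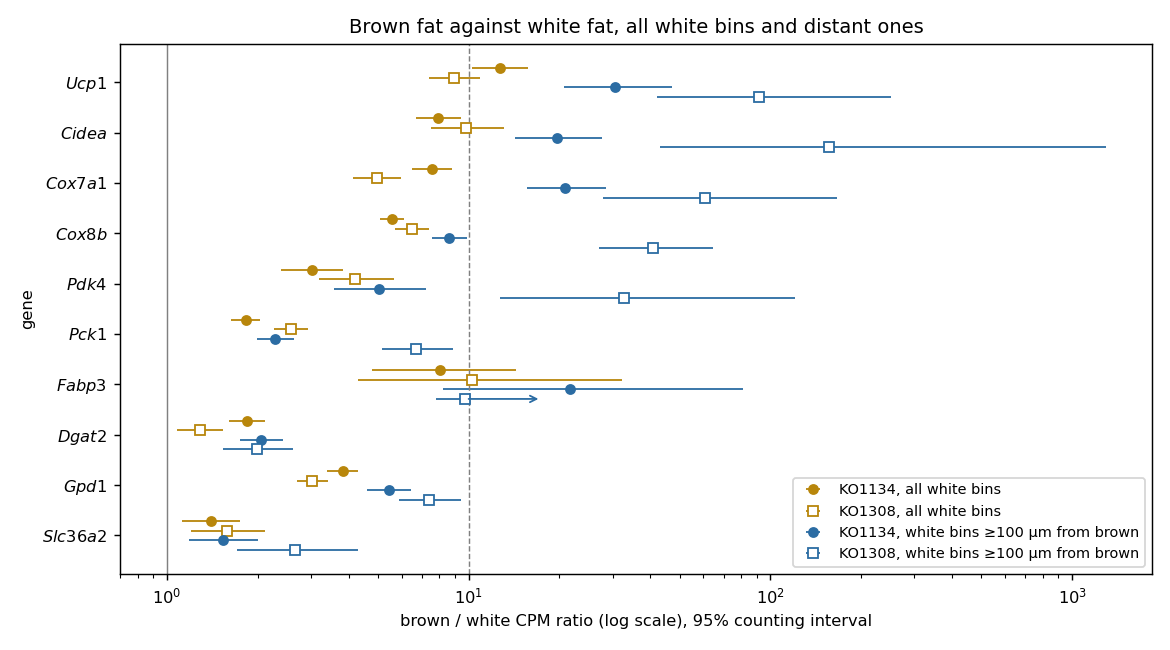
Ratio of brown to white CPM (x axis, log scale) for the 10 genes (y axis) in KO1134 (filled circles) and KO1308 (open squares), against all white bins (gold) and against white bins at least 100 µm from a brown bin (blue), with 95% counting intervals, lines at 1 and 10, and an arrow for a lower bound. *Ucp1*, *Cidea* and *Cox7a1* move past 10 in both sections against distant white bins, and *Dgat2* and *Slc36a2* remain under 3. *Ucp1* and *Cidea* help define the brown bins.

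Within 30 µm of the brown bins, the 3 defining genes had the lowest levels of the set relative to brown bins. This follows from the threshold, which leaves only bins low in these genes outside the brown class. Bins within 30 µm of a brown bin, of which 32.0% in KO1134 and 66.7% in KO1308 were white, held *Ucp1* at 32.8% and 31.0% of its brown level. At 30 to 60 µm the share was 10.7% and 9.22%, at 60 to 120 µm 2.94% and 3.78%, and beyond 240 µm 0.0788% and 0.159%. *Slc36a2* within 30 µm was at 100% and 106% of its brown level and *Dgat2* at 82.3% and 112%. *Retn*, the resistin gene of white fat, went the other way and peaked at 30 to 60 µm, at 538% and 667% of its level in brown bins. Bins that border brown ones fall under the threshold by definition, so their lower levels of the defining genes are a description only. They also held high levels of *Retn*, which helps define the white bins. As a share of all UMIs of a gene, 74.2% of *Ucp1* (71.7-76.6) in KO1134 and 91.3% (90.2-92.4) in KO1308 lay in brown bins, and 91.8% and 96.4% within 60 µm of one, an area that held 3.84% and 5.67% of all UMIs. The smallest shares in brown bins were those of *Slc36a2* in KO1134 (34.1%) and *Dgat2* in KO1308 (60.9%).

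**Figure D4:**
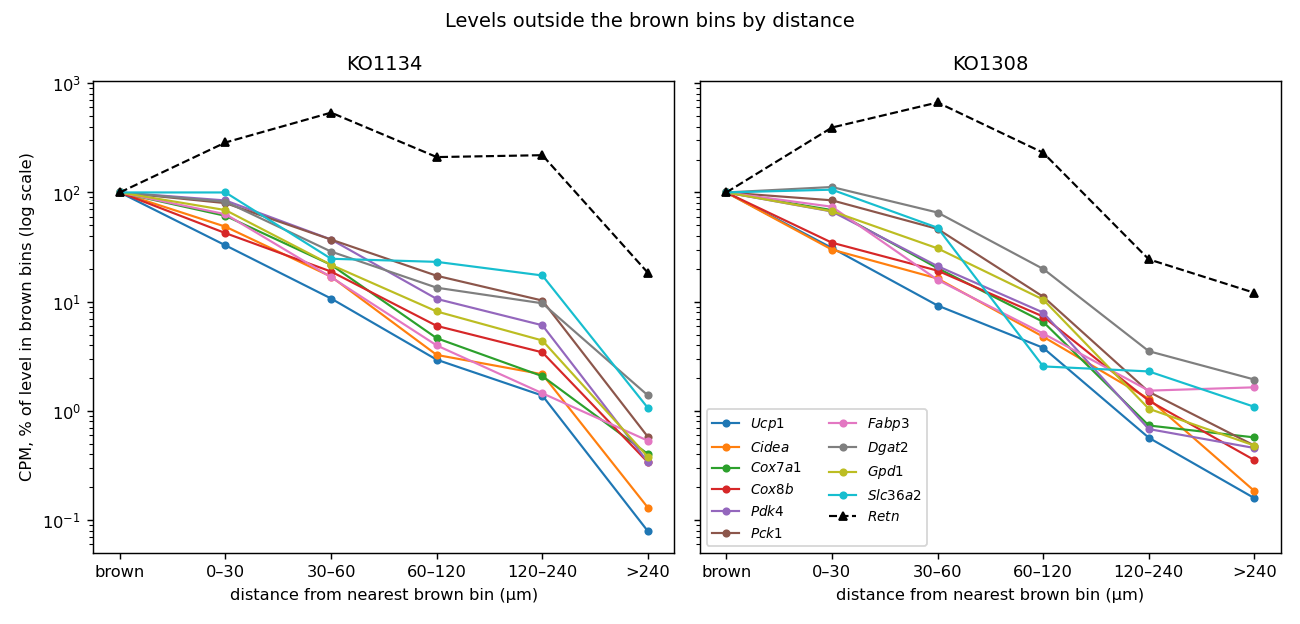
CPM as a percent of the level in brown bins (y axis, log scale) by distance from the nearest brown bin (x axis, µm) for the 10 genes and *Retn* (dashed) in both KO sections. *Ucp1* falls to 10.7% and 9.22% at 30 to 60 µm while *Retn* peaks there, and some points of KO1308 beyond 60 µm rest on 1 to 3 UMIs.

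The threshold cut a continuous range. The share of UMIs on the 3 defining genes had a median of 0.694% over brown bins of KO1134 and 0.902% over those of KO1308. The lowest and highest shares of single brown bins were 0.50% and 1.24% in KO1134, and 0.503% and 1.86% in KO1308. In the 61 bins of KO1134 just above the threshold (median share 0.543%) *Ucp1* had 1004 CPM, and in the 60 bins just below it (0.447%) 713 CPM. The corresponding values in KO1308 were 1564 CPM in 49 bins and 1133.7 CPM in 46 bins. Of the genes outside the definition, *Dgat2* had 757 CPM above and 760 CPM below the threshold in KO1134 and 597 and 684 CPM in KO1308. *Cox7a1* was higher above it, at 1601 against 1206 CPM in KO1134 and 1650 against 1206 CPM in KO1308. Among the 505 brown bins of KO1308, 181 had a share above 1%. From the lower to the higher grade, *Retn* went from 318 CPM (271-371) to 106 CPM (73.1-149) and *Cfd* from 4901 to 3486 CPM, whereas *Cox7a1* (1850 and 1986 CPM), *Pck1*, *Dgat2* and *Slc36a2* had intervals that overlapped. *Gpd1* had 2741 CPM (2599-2888) in the lower and 3148 CPM (2954-3352) in the higher grade. KO1134 had 11 bins in the higher grade.

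Because the definition used *Ucp1*, *Cidea* and *Cox8b*, each was also measured in bins chosen by the other 2, with the same threshold. *Ucp1* then had 1464 CPM in 156 bins of KO1134 and 2782 CPM in 354 bins of KO1308, 9.35-fold (7.72-11.4) and 3.14-fold (2.82-3.52) above the white bins. *Cidea* was 6.26-fold and 3.93-fold higher, and *Cox8b* 4.06-fold (in 19 bins) and 1.87-fold (in 189 bins). Bins that passed with 3 genes but not with 2 were in the white or other class there. When bins were classed on one set of spots and measured on the remaining spots of the same bins, *Ucp1* had 1256 CPM and 2727 CPM in brown bins, 8.64-fold (6.49-11.7) and 4.31-fold (3.58-5.24) above white bins, and *Slc36a2* was 1.36-fold (0.974-1.91) and 1.85-fold (1.26-2.79) higher. In KO1308 the ratio was then 3.91 (1.77-10.2) for *Fabp3*, 4.09 (3.21-5.28) for *Cidea*, 4.45 (3.55-5.64) for *Cox7a1* and 3.39 (2.98-3.87) for *Cox8b*, so 0 genes were at least 5-fold higher in both sections, against 4 with all spots. *Pdk4*, *Pck1*, *Dgat2* and *Gpd1* kept ratios between 1.49 (*Dgat2*) and 4.12 (*Pdk4*) in KO1308.

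Several of the genes have a close relative that is used more widely, and the share of the pair was compared between classes, since UMI counts of different transcripts are not adjusted for length. *Cox7a1* made up 57.8% (55.6-59.9) of *Cox7a1* and *Cox7a2* UMIs in brown bins of KO1134 and 55.2% (53.3-57.0) in KO1308, against 22.9% and 28.4% in white bins, 5.12% and 4.28% in other bins and 1.31% in other bins of WT1101. *Cox8b* made up 62.8% (61.3-64.3) and 63.0% (61.8-64.2) of *Cox8b* and *Cox8a* UMIs in brown bins, 33.5% and 35.3% in white bins and 0.568% in other bins of WT1101. *Ucp1* took 96.5% and 97.2% of the UMIs of *Ucp1*, *Ucp2* and *Ucp3* in brown bins and 2.01% and 1.95% in other bins. *Cidea* was the larger part of *Cidea* and *Cidec* in brown bins and the smaller in white bins, at 79.1% (76.7-81.4) and 78.1% (76.1-80.1) in the first and 26.3% (22.8-30.0) and 22.8% (17.7-28.5) in the second. In other bins it took 57.3% (53.1-61.5) in KO1134 and 47.8% (40.4-55.3) in KO1308, above the white bins. *Pdk4* was 60.6% and 77.4% of the 4 pyruvate dehydrogenase kinases in brown bins and 43.9% and 47.4% in white bins. *Pck1* (98.97% and 99.6% of *Pck1* and *Pck2* in brown bins, 97.4% and 99.6% in white bins) and *Gpd1* (87.2% and 90.5%, then 82.4% and 87.1%) took nearly the same share in both kinds of fat. *Fabp3* made up 1.55% and 1.03% of *Fabp3*, *Fabp4* and *Fabp5* UMIs in brown bins and 17.0% (8.07-29.8, 9 UMIs) in bins of KO1308 rich in heart muscle markers.

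**Figure D5:**
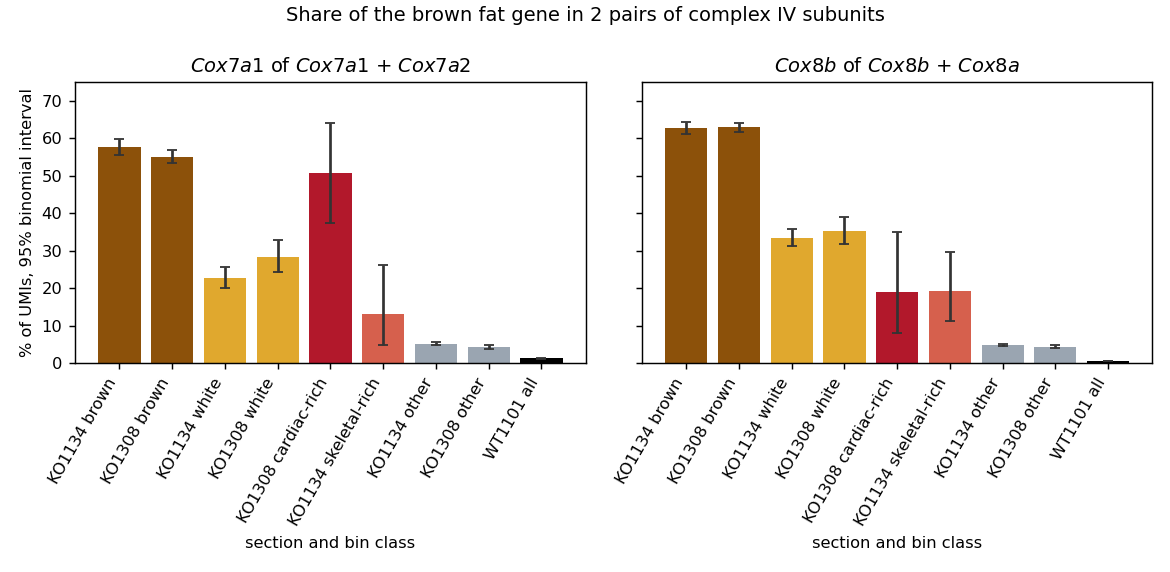
Share of *Cox7a1* in *Cox7a1* and *Cox7a2* UMIs (left) and of *Cox8b* in *Cox8b* and *Cox8a* UMIs (right), as a percent (y axis, from 0) by section and bin class (x axis), with 95% binomial intervals. *Cox7a1* reaches 57.8% and 55.2% in brown bins and 50.8% in the few heart muscle bins of KO1308, whereas *Cox8b* is at 18.9% there.

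*Cox7a1*, *Cox8b* and *Fabp3* are also genes of heart and skeletal muscle, and bins rich in muscle (at least 0.5% of UMIs on muscle markers) were measured apart. KO1308 had 51 bins rich in heart muscle markers, with 610 CPM of *Cox7a1* (412-871, 30 UMIs), 183 CPM of *Fabp3* (83.7-347, 9 UMIs) and 142 CPM of *Cox8b* (57.2-293, 7 UMIs). *Ucp1* had 1 UMI and *Cidea* 0 UMIs in them. *Cox7a1* had 1901 CPM in brown bins of KO1308, so calling it exclusive holds against distant white bins and not against heart muscle. KO1134 had 93 bins rich in skeletal muscle markers, with 154 CPM of *Cox8b* (15 UMIs) and 61.6 CPM of *Cox7a1* (6 UMIs). In heart muscle bins *Fabp3* was therefore at a level whose interval held that of brown bins. At this depth 0 UMIs of *Cidea* still allow 61.0 CPM, and 1 UMI of *Ucp1* has an interval of 0.515-113 CPM. None of the brown bins was rich in muscle, and the 9 heart muscle markers had 4 UMIs in brown bins of each KO section, while the 8 skeletal muscle markers had 5 UMIs in KO1134 and 0 in KO1308.

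The 2 KO sections differed in their brown bins in some genes and not in others. *Ucp1* was 1.83-fold (1.70-1.98) higher in KO1308 than in KO1134, *Pdk4* 1.73-fold (1.48-2.02), *Gpd1* 1.64-fold (1.52-1.77), *Pck1* 1.58-fold (1.45-1.73) and *Cox8b* 1.18-fold (1.12-1.24). *Dgat2* was lower, at 0.790-fold (0.698-0.894). *Ucp1*, *Cidea* and *Cox8b* choose the brown bins, so their levels there depend on the cut. The *Ucp1* ratio moved below and above its interval under other definitions of brown bins, given in the last section. The intervals of *Cidea* (1.05), *Cox7a1* (0.984), *Fabp3* (0.892) and *Slc36a2* (1.08) included 1. Of 3240 genes with at least 20 UMIs in brown bins of each section, 13% had an interval above 1 and 14.5% an interval below it, and the median ratio was 0.951. KO1308 was 21 weeks old and KO1134 17 weeks old, and the sections also differed in depth and in what lay around the brown bins. Of the 8 bins around a brown bin, 22.8% were other bins in KO1134 and 4.16% in KO1308. With 1 section at each age these cannot be told apart. In white bins, *Ucp1* was 2.60-fold (1.96-3.45) and *Gpd1* 2.07-fold (1.78-2.41) higher in KO1308 as well, whereas *Pck1* was 1.13-fold (0.969-1.30). In white bins at least 100 µm from a brown bin, *Ucp1* had 51.2 CPM (33.4-75.01) in KO1134 and 31.2 CPM (11.5-68.0) in KO1308, so its direction did not hold there, and *Gpd1* had 325 CPM (277-378) and 390 CPM (307-489), with intervals that overlapped.

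Genes of the pathways that serve heat production were counted from lists, all of them chosen with earlier results of these data known, and members of the 10-gene set were left out of the counts. Of 6585 genes, 2.63% were at least 2-fold higher and 15.6% at least 2-fold lower in brown than in white bins of both KO sections. In the citrate cycle 13 of 16 measured genes were higher and 0 lower, with a median ratio of 2.70 in KO1134 and 2.45 in KO1308. *Sucla2* had 1270 and 1241 CPM in brown bins and 322 and 328 CPM in white bins, and *Idh3a* was 4.66-fold and 2.46-fold higher. In fatty acid oxidation 11 of 21 measured genes were higher and 0 lower. *Cpt1b*, which brings long-chain fatty acids into mitochondria, was 5.50-fold (3.25-9.79) and 3.71-fold (2.04-7.40) higher, and *Acaa2*, the last enzyme of the cycle of oxidation, 4.09-fold and 4.54-fold. The 13 mitochondrially encoded genes were 2-fold higher in 11 cases, with medians of 2.45 and 2.55. Of the 11 nuclear complex IV subunits measured outside the set, 4 were higher, *Cox5b* (2.39 and 2.21), *Cox7b* (2.22 and 2.198), *Cox5a* (2.13 and 2.36) and *Cox6a1* (2.16 and 2.13).

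Among 15 measured regulators of brown fat 6 were higher (*Cebpb*, *Otop1*, *Clstn3*, *Ebf2*, *Letmd1* and *Ppargc1b*) and 0 lower. *Ppargc1b*, a coactivator of mitochondrial biogenesis, was 3.502-fold (1.801-7.23) and 3.95-fold (1.58-12.7) higher, and *Ebf2*, a transcription factor that marks brown precursors, 2.07-fold (0.914-4.89, from 17 and 11 UMIs) and 3.40-fold (1.21-13.2). *Prdm16*, a coregulator that holds brown identity, had ratios of 1.87 and 1.88 at 58.5 and 38.9 CPM in brown bins. *Pparg*, the master regulator of all fat cells, had ratios of 1.72 and 1.203, and *Adrb3*, the receptor through which noradrenaline activates fat, 0.756 and 1.22. *Elovl3*, *Zic1* and *Ppara* were among the 11 regulators with under 20 UMIs in the fat bins of a section. Among 11 genes of triglyceride storage outside the set 1 was higher, *Plin5*, a droplet protein of oxidative tissues, and 0 of 12 lipogenesis genes were higher and 1, *Me1*, was lower. *Fasn*, the fatty acid synthase, had 6691 and 7674 CPM in brown bins and ratios of 1.503 and 1.33, and *Scd1* had ratios of 0.719 and 0.907.

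In lipolysis and glycerol metabolism 2 of 7 genes were higher (*Gpd2* and *Gk*), and *Gk*, the glycerol kinase, was 3.25-fold (1.70-6.56) and 4.94-fold (2.16-13.9) higher. Lipid uptake had 1 of 9 genes higher (*Slc27a2*) and 2 lower (*Fabp5* and *Slc27a1*). *Slc27a2* had 23 and 33 UMIs in brown bins but 7 and 0 in white bins. It was thus measured through the brown bins, and its KO1308 ratio is a bound against 3 assumed UMIs. Creatine and calcium cycling, a heat source that does not need *Ucp1*, had 1 measured gene of 11, *Atp2a2*, with ratios of 0.999 and 0.908. Of 11 measured white fat genes 4 were lower (*Retn*, *Cfd*, *Lep* and *Nrip1*) and 0 higher. *Retn* and *Cfd* are set low by the definition of the white bins, which also uses *Adipoq*. This leaves *Lep* and *Nrip1*, beside 15.6% of all genes that were at least 2-fold lower. *Nrip1* had 35.0 and 41.3 CPM in white bins but 54.3 and 55.8 CPM in other bins, so it was not highest in white fat. *Lep*, the leptin gene, had 30.1 and 12.2 CPM in brown bins and 63.7 and 35.4 CPM in white bins.

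Among the 15 genes outside the set with the largest ratio of brown to white CPM in both KO sections were *Coq8a*, *Pank1*, *Slc27a2*, *Acaa2*, *Acadvl*, *Cpt1b*, *Ppargc1b*, *Plin5*, *Gk*, *Sucla2*, *Dlst*, *Ahcyl1*, *Ddo* and *Ttc41*. *Coq8a* had 667 and 580 CPM in brown bins and 120 and 106 CPM in white bins, a ratio of 5.56 (4.44-7.03) and 5.46 (3.89-7.89). *Pank1*, a kinase of coenzyme A synthesis, was 5.10-fold (2.91-9.49) and 5.26-fold (2.68-11.8) higher. *Ttc41* had 42 and 54 UMIs in brown bins and 8 and 2 UMIs in white bins. The ratio of *Slc27a2* in KO1308, with 0 UMIs in white bins, is a bound against 3 assumed UMIs. Exons of *Acadvl* overlap those of *Dvl2* on the opposite strand, which had 391 and 452 CPM in brown and 155 and 142 CPM in white bins, and those of *Cpt1b* overlap *Gm44502* on the same strand, so how reads of each pair were divided is uncertain. The 6 genes at the low end were *Oxtr*, *Retn*, *Trf*, *Ccnd2*, *Incenp* and *Ptges*. *Retn* helps define the white bins. *Incenp* had 35.0 and 91.5 CPM in white bins but 72.8 and 125.9 CPM in other bins. *Ccnd2* had 52.4 and 64.9 CPM in white and 45.8 and 56.4 CPM in other bins. *Oxtr*, *Retn*, *Trf* and *Ptges* were clearly higher in white than in other bins. The part of tissue other than fat in these ratios was not tested. *Trf*, the iron carrier transferrin, had 33.4 and 20.7 CPM in brown bins and 218 and 322 CPM in white bins, and its exons overlap *Gm20425* on the same strand. *Oxtr*, the oxytocin receptor, had 0 and 4 UMIs in brown bins and 36 and 22 UMIs in white bins.

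Other cell types contributed to the brown bins to different degrees. All 6 T cell markers were present, at a summed 568 CPM in KO1134 and 208 CPM in KO1308 (most abundant *Trbc2*), against 3456 and 4358 CPM in other bins. The 5 thymic epithelial markers, led by *Prss16*, had 129 and 53.5 CPM in brown bins and 839 and 1324 CPM in other bins, where the labelled tissue, thymus, was thus present. Endothelial markers had 306 and 457 CPM in brown bins, with *Gpihbp1* the most abundant, and 131 and 145 CPM in other bins. White bins had more of them, at 364 and 590 CPM. White adipocyte markers, led by *Cfd* in KO1308 and *Car3* in KO1134, had 4769 and 8477 CPM in brown bins, and 14974 and 19510 CPM in white bins. Erythroid markers had 4 UMIs in brown bins of each section. The part of these cells in the levels above was not tested.

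The other bins of the KO sections also held UMIs of the set. In other bins at least 100 µm from a brown bin, which may still border white bins, *Cidea* was 14.3-fold (6.57-36.7) above all of WT1101 in KO1134 and 20.3-fold (9.22-52.7) in KO1308, *Pck1* 10.01-fold and 11.5-fold, and *Slc36a2* 18.97-fold and 14.1-fold. *Dgat2* was 1.204-fold (1.02-1.42) and 1.25-fold (1.02-1.52), and *Pdk4* 0.687-fold (0.465-0.9998) and 1.41-fold (0.979-2.02). *Ucp1* in the same bins was 66.0-fold (11.3-2664) and 189-fold (32.9-7566) above WT1101, where it rests on 1 UMI. Permeabilisation lasted longer for KO than for WT sections according to the study's methods, and its part in these values was not tested.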

How the data were processed

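Per the study's methods, the authors ran BSTMatrix and the STAR aligner, with GRCm38 named in the processing notes. The files they deposited hold raw UMI counts for every gene and spot, and spot positions. Deposited totals were 31237062 (KO1134), 21089885 (KO1308) and 41581477 UMIs (WT1101). The study left out folded spots, which are not marked in the files and were kept here. Spots were summed in 27 µm bins, filtered and classed as described above, and counts were summed over the bins of a class and divided by their total to give CPM. A ratio against a class with 0 UMIs was computed against 3 UMIs. In counts over all genes, values under 3 UMIs were set to 3. Genes were measured when brown and white bins together held at least 20 UMIs in each KO section. Positions and overlaps come from GENCODE vM21. The 10 genes, the gene lists and the rule for other named genes (the 15 largest and 6 smallest brown to white ratios outside mitochondrial and pseudogene names, with at least 20 UMIs in the brown bins, or for the smallest the white bins, of each KO section) were chosen with earlier results of these data known. Of the genes this rule names, 1 is not reported here. No doublet calling applies to bins, and bins may hold several cells. Intervals were tried on simulated Poisson counts, the model they assume, so that trial does not cover spread between bins, patches or mice. Alternatives varied bin width, filters, thresholds, defining genes, white bins, denominator and sections. Python 3.11.15, numpy 2.4.6, scipy 1.17.1, pandas 2.3.3 and matplotlib 3.10.9 were used. The samples are separate mice, and no test was made between them.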

Additional observations from a re-analysis of the deposited data

Results flagged for a closer look

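Bins with fewer than 300 genes entered no comparison, apart from the alternative with at least 200 genes per bin. There were 504 of them in KO1134 (80232 UMIs), 13772 in KO1308 (2631398 UMIs) and 4346 in WT1101 (922106 UMIs), and 9 of the 10 genes, all but *Fabp3*, stood above their WT1101 level in these bins of both KO sections. The respiratory and droplet genes had, in KO1134 and KO1308, 62.3 and 119.7 CPM (*Ucp1*), 124.6 and 75.2 CPM (*Cidea*), 99.7 and 120.8 CPM (*Cox7a1*) and 361 and 246 CPM (*Cox8b*). The genes of fuel use and glycerol supply had 62.3 and 36.9 CPM (*Pdk4*), 199.4 and 143 CPM (*Pck1*), 187 and 70.3 CPM (*Dgat2*) and 124.6 and 174 CPM (*Gpd1*), and *Slc36a2* had 37.4 and 28.1 CPM. The values of KO1134 rest on few UMIs, 5 for *Ucp1*.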

How the results depend on the processing

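The median ratio of brown to white CPM over the 10 genes (4.64, the mean of both KO sections) and the share of *Cox8b* in *Cox8b* and *Cox8a* (62.89%) moved by more than their counting intervals or the spread of the sections under many settings. They were 4.13 and 63.91% with bins of 20 µm, 4.34 and 61.79% with 50 µm, 5.30 and 63.17% with at least 200 genes, 3.99 and 62.45% with at least 500 genes, 3.89 and 64.79% with brown bins from *Ucp1* and *Cox8b*, and 3.69 and 65.51% from *Cidea* and *Cox8b*. With brown bins at 0.25% they were 7.13 and 61.10%, the share of brown bins was 3.47% in KO1134 and 0.0148% in WT1101, the *Cox7a1* share was 54.52% and *Ucp1* was 2.16-fold higher in KO1308 than in KO1134. At 1% they were 2.70 and 67.96%, the shares of brown bins 0.0916% in KO1134 and 1.12% in KO1308, the *Cox7a1* share 58.52% and the *Ucp1* ratio of the sections 1.25. With brown bins from *Ucp1* and *Cidea* they were 2.76 and 60.46%, the shares of brown bins 0.158% and 1.17%, the *Ucp1* ratio of the sections 1.26, 0 genes were higher in KO1134, and *Slc36a2* in KO1134 was at 0.758 of its white level, the only ratio of the set to change direction. Classing and measuring on separate spots gave 3.74 and 60.51%, a brown share of 0.00738% in WT1101 and a *Ucp1* ratio of 2.17. The median alone was 5.70 with bins outside the connected groups kept, 4.79 with white bins at 1%, 14.1 against distant white bins and 5.38 outside mitochondrially encoded genes. The number of exclusive genes (0) became 1 with 20 µm bins, with at least 200 genes, with all kept bins and outside mitochondrially encoded genes, 2 with white bins at 1%, and 3 with brown bins at 0.25% or against distant white bins. The number of shared genes (2) became 1 with brown bins at 0.25% and outside mitochondrially encoded genes, and 0 with white bins at 0.25% and against distant white bins. The cause was not tested. Without KO replicate 1 or 2 the number of exclusive genes was 1 in both cases, *Fabp3* in KO1308 and *Ucp1* in KO1134, and shared genes ranged from 2 to 3. Among ratios of single genes to white bins, 119 moved, 1 reversed and 200 did neither. Removing the mitochondrial limit, chosen after seeing the data, left 233 brown bins in KO1134 and gave 510 in KO1308. The ratio of the KO sections cannot be computed without either of them. No paired analysis was possible because no test was made and the groups share only replicate number 1. Depth limits *Fabp3* most, with 5 UMIs in white bins of KO1308.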
